A study of Mus musculus with 30 samples.

Results

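MHC class I antigen presentation was followed here through 10 genes, H2-D1, H2-K1, B2m, Tap1, Tap2, Tapbp, Psmb8, Psmb9, Psmb10 and Nlrc5, taken from a table of 53974 mouse genes. The genes were chosen by symbol with their TPM differences between treated and control NSPCs known, so the members were selected on those values and the differences are a description. No p-value is given for them, and calls at a threshold are printed as counts from which nothing is read. The other gene lists were also chosen with earlier results of these data known. Genes were named from them largely by smallest adjusted p, so their p-values are a description and no independent test. RNA came from neural stem and progenitor cells (NSPCs) of C57BL/6 embryonic forebrain at E13.5, grown with EGF and FGF at early passages and exposed for 24 h to 1 µM MS-275, to 10 mM crotonate or to DMSO (control), in 4 biological replicates each. Untreated C57BL/6 forebrain at E13.5 gave 1 RNA library and 1 library each for histone H3 crotonylated (H3K9cr) or acetylated (H3K9ac) at lysine 9. Forebrain explants of E13.5 ICR embryos gave 3 crotonate and 3 control RNA libraries. For these the dose and duration of crotonate are not given in the sources used here. The same 3 NSPC treatments were profiled for lysine crotonylation (Kcr) and lysine acetylation (Kac) by chromatin immunoprecipitation, with 1 library per antibody and treatment. MS-275 (entinostat) inhibits class I histone deacetylases, and crotonate is a short-chain fatty acid that cells can turn into crotonyl-CoA. No genetic change was made in any group, and whether the crotonate cultures also received DMSO is not given.

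Class I molecules show short peptides from inside the cell to CD8+ T cells and natural killer cells. The proteasome cuts proteins into peptides, a transporter of the endoplasmic reticulum membrane carries them inward, and a loading complex places them on a heavy chain bound to β2-microglobulin. Interferon exchanges 3 catalytic subunits of the proteasome for inducible ones, and NLRC5 drives class I promoters together with RFX, CREB/ATF and NF-Y factors. Neurons and neural progenitors are known for low class I levels.

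The sequences before the starts of H2-D1, H2-K1 and B2m, and the stretch between Psmb9 and Tap1, are shown because RNA of these genes was higher in both treatments and peaks lay beside them. They come from RefSeq on GRCm38.p6, whose promoter table held 8 of the 10 genes, without Tap2 and Nlrc5. For H2-K1 that table holds 2 starts, and the outer one, 34000347, was used here; it lies 272 bases inside the end of the annotated gene at 34000619. For the other 7 genes the start is the end of the annotated gene. Capitals mark the κB-like palindrome GGGGATTCCCC, read from H2-K1, and the interferon-response-like motifs GAANNGAAA or GAAA, any 2 bases and GAAA. They also mark TGACG followed after 15 to 25 bases by ATTGG, the reverse complement of CCAAT. In the stretch between Psmb9 and Tap1 they mark TGACG alone.
H2-D1, 250 bases before the start, plus strand, chr17:35262844-35263093: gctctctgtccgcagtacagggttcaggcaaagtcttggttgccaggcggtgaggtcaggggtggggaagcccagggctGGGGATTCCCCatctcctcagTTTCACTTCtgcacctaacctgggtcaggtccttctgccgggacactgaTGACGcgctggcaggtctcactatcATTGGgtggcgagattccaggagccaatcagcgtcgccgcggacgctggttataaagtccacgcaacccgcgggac
H2-K1, 250 bases before the start, minus strand, inside the annotated gene, chr17:34000348-34000597: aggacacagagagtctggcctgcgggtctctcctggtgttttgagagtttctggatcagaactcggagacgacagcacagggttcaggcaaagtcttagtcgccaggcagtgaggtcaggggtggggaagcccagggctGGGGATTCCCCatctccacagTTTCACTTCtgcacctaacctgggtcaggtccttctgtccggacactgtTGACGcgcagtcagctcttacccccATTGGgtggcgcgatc
B2m, 250 bases before the start, plus strand, chr2:122147437-122147686: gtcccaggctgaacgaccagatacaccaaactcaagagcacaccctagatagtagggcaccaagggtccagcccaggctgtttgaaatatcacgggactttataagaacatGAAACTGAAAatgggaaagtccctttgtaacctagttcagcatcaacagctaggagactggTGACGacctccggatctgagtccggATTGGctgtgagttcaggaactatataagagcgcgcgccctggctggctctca
Psmb9 to Tap1, 225 bases, plus strand, chr17:34187331-34187555: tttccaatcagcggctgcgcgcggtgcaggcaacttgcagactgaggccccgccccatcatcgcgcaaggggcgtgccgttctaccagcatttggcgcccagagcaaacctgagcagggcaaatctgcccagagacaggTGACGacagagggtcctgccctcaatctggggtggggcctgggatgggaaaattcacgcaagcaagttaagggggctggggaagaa
Both strands of the 250 bases before each start were searched. GGGGATTCCCC was found in 10 of 32851 RefSeq promoters (0.0304%), and H2-D1 and H2-K1 were among these 10. The motif was read from H2-K1, so H2-K1 is among them by construction. The H2-D1 stretch is close to that of H2-K1, so nothing is read from this share. It lay at positions -171 to -161 in H2-D1 and at positions -111 to -101 in H2-K1, counted from the start of the promoter table, which for H2-K1 lies inside the annotated gene. GAANNGAAA was present in 6.31% of promoters and matched both heavy chains. The longer form with GAAA on both sides was present in 2.98% and matched B2m. The spaced pair of TGACG and ATTGG was held by H2-D1, H2-K1 and B2m and by 0.381% of all promoters. TGACG alone was in 17.8% of promoters and in 5 of the 8 class I genes, and CCAAT in 33.8% and in 6 of the 8. The H2-D1 and H2-K1 stretches matched at 161 of 177 aligned bases (91.0%). A match of letters is not a measured binding site.

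The deposited RNA values of the NSPCs and forebrain are in TPM, a transcript level scaled to gene length and to the library total. No read counts stand beside them, and sequencing depth is therefore unknown. Each column summed to between 998182 and 999495 TPM. The 10 neural stem and progenitor markers checked all reached 1 TPM in every NSPC library, and summed to 13114 to 13879 TPM with MS-275, 8493 to 9527 with crotonate, 2575 in the forebrain and 9201 to 9798 in control NSPCs. The 13 microglia and blood cell markers summed to 6.00 to 11.4 TPM with MS-275, 4.23 to 11.1 with crotonate, 57.3 in the forebrain and 5.39 to 8.60 in control NSPCs. Among them Aif1 was at 0 in all MS-275 and all control libraries, and 1 to 4 of the 13 markers per library reached 1 TPM in the MS-275 group, 1 to 3 in the crotonate group and 1 to 2 in the control group. The 8 endothelium markers summed to 5.54 to 8.27 TPM with MS-275, 3.15 to 4.22 with crotonate, 74.2 in the forebrain and 2.18 to 3.10 in control NSPCs. The 9 pericyte and fibroblast markers summed to 7.59 to 26.6 TPM with MS-275, 5.65 to 17.2 with crotonate, 41.0 in the forebrain and 2.03 to 15.4 in control NSPCs. The 8 neuron markers summed to 1037 to 1088 TPM with MS-275, 766 to 839 with crotonate, 3365 in the forebrain and 900 to 980 in control NSPCs. Of 7 tested, 6 rose and 0 fell with MS-275, and 5 rose and 2 fell with crotonate (limma; median log2 differences 1.03 and 0.69), the 2 that fell being the abundant Map2 and Gap43. The 5 astrocyte markers summed to 503 to 625 TPM with MS-275, 528 to 673 with crotonate, 50.9 in the forebrain and 431 to 565 in control NSPCs. Of these, 3 rose and 0 fell with each agent, with median log2 differences of 1.01 with MS-275 and 0.48 with crotonate. Over all genes tested, 37.4% rose and 27.6% fell with MS-275, and 32.3% and 15.9% with crotonate. Most tested neuron markers and 3 of the 5 astrocyte markers thus rose with each agent. The summed neuron markers were higher with MS-275 than in control NSPCs and lower with crotonate. The part of neurons or astrocytes in the class I values was not tested. In bulk RNA, fewer cells of a type and less RNA per cell cannot be told apart.

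H2-D1 and H2-K1 encode the classical class I heavy chains that hold the peptide. H2-D1 (chr17:35263094-35267497) had 54.1, 56.7, 59.5 and 56.1 TPM with MS-275, 46.8, 54.0, 55.6 and 50.4 TPM with crotonate, and 20.6, 21.3, 19.8 and 23.003 TPM in control NSPCs. All treated libraries lay above all controls, with means 2.67-fold (MS-275) and 2.44-fold (crotonate) that of the control. H2-K1 (chr17:33996012-34000619) had 169, 163, 186 and 197 TPM with MS-275, 175, 168, 155 and 162 TPM with crotonate, and 48.0, 66.4, 58.7 and 69.7 TPM in control NSPCs. Again no treated library overlapped a control, and the means were 2.94-fold and 2.72-fold the control. On the scale of log2(TPM + 1), from 1 limma fit of the 12 libraries, H2-D1 was higher by 1.38 (SE 0.06) with MS-275 and by 1.25 with crotonate. H2-K1 was higher by 1.55 (SE 0.10) and 1.44. Heavy chain genes are near-identical in long stretches, so how reads were divided between H2-D1, H2-K1 and the H2-Q and H2-T genes is uncertain.

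B2m encodes β2-microglobulin, the light chain that every classical class I molecule needs to reach the surface. It was the most abundant of the 10 genes in every group. B2m (chr2:122147687-122153082) had 294, 320, 315 and 313 TPM with MS-275, 375, 379, 381 and 371 TPM with crotonate, and 157, 154, 149 and 183 TPM in control NSPCs. The 3 groups did not overlap, and crotonate stood highest. The log2 difference from control was 0.95 (SE 0.05) with MS-275 and 1.23 with crotonate.

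Tap1 and Tap2 form the transporter that brings peptides into the endoplasmic reticulum. Tap1 (chr17:34187556-34197225) had 14.3, 15.1, 14.0 and 14.6 TPM with MS-275, 14.2, 14.0, 12.8 and 13.8 TPM with crotonate, and 8.69, 5.61, 6.87 and 6.91 TPM in control NSPCs. Tap2 (chr17:34204479-34216321) had 14.4, 13.4, 10.4 and 11.0 TPM with MS-275, 9.90, 10.2, 10.1035 and 9.47 TPM with crotonate, and 3.40, 3.91, 3.60 and 4.29 TPM in control NSPCs. Both transporter genes were clear of the controls in every treated library. The log2 difference of Tap1 was 0.97 (SE 0.10) with MS-275 and 0.89 with crotonate, and that of Tap2 was 1.46 (SE 0.10) and 1.19. In control NSPCs Tap1 stood above Tap2 without overlap.

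Tapbp encodes tapasin, which bridges the transporter and the empty heavy chain. Tapbp (chr17:33919478-33929290) had 17.4, 15.6, 18.3 and 14.7 TPM with MS-275, 18.8, 19.5, 18.8 and 19.7 TPM with crotonate, and 15.01, 18.6, 16.1 and 22.9 TPM in control NSPCs. Both treated groups overlapped the control, whose spread was the widest of the 3 groups. Its log2 difference from control was -0.12 (SE 0.11) with MS-275 and 0.09 with crotonate. Among the 10 genes, Tapbp was the 1 whose treated libraries overlapped the controls with both agents.

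Psmb8, Psmb9 and Psmb10 encode the inducible catalytic subunits β5i, β1i and β2i of the immunoproteasome, and they did not move as 1 group. Psmb8 (chr17:34198195-34201454) had 14.1, 12.5, 13.2 and 12.4 TPM with MS-275, 12.3, 13.7, 13.0 and 11.7 TPM with crotonate, and 4.62, 4.46, 2.56 and 1.87 TPM in control NSPCs. Psmb9 (chr17:34182030-34187330) had 3.46, 4.99, 4.43 and 4.27 TPM with MS-275, 2.79, 3.71, 3.64 and 3.60 TPM with crotonate, and 2.28, 0.971, 0.672 and 0.941 TPM in control NSPCs. Treated libraries of both genes lay above all controls, with mean levels 3.86-fold (MS-275) and 3.76-fold (crotonate) the control for Psmb8, and 3.53-fold and 2.83-fold for Psmb9. The log2 difference of Psmb9 was 1.30 (SE 0.19) with MS-275 and 1.05 with crotonate, against 0.80 and 0.60 after quantile normalization. Psmb10 (chr8:105935728-105938392) had 19.9, 21.8, 17.5 and 18.9 TPM with MS-275, 26.3, 21.9, 26.7 and 21.7 TPM with crotonate, and 29.7, 32.1, 34.7 and 34.4 TPM in control NSPCs. Psmb10 was thus lower in all 8 treated libraries than in all controls, by a log2 difference of -0.72 (SE 0.09) with MS-275 and -0.43 with crotonate. The direction was the same under both other scalings.

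Nlrc5 encodes the transactivator of class I genes and had the lowest level of the 10 in control NSPCs. Nlrc5 (chr8:94434335-94527272) had 8.25, 4.50, 8.37 and 5.70 TPM with MS-275, 1.38, 5.48, 5.98 and 1.88 TPM with crotonate, and 0.182, 0.592, 0.252 and 0.213 TPM in control NSPCs. Every treated library was above every control, but crotonate replicates 1 and 4 were low and 2 and 3 high. Its mean was 21.6-fold the control with MS-275 and 11.9-fold with crotonate. Its log2 difference was 2.53 (SE 0.33) with MS-275 and 1.69 with crotonate at a pseudocount of 1, against 4.10 and 3.04 at a pseudocount of 0.1, because its control level lies under 1 TPM.

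**Figure D1:**
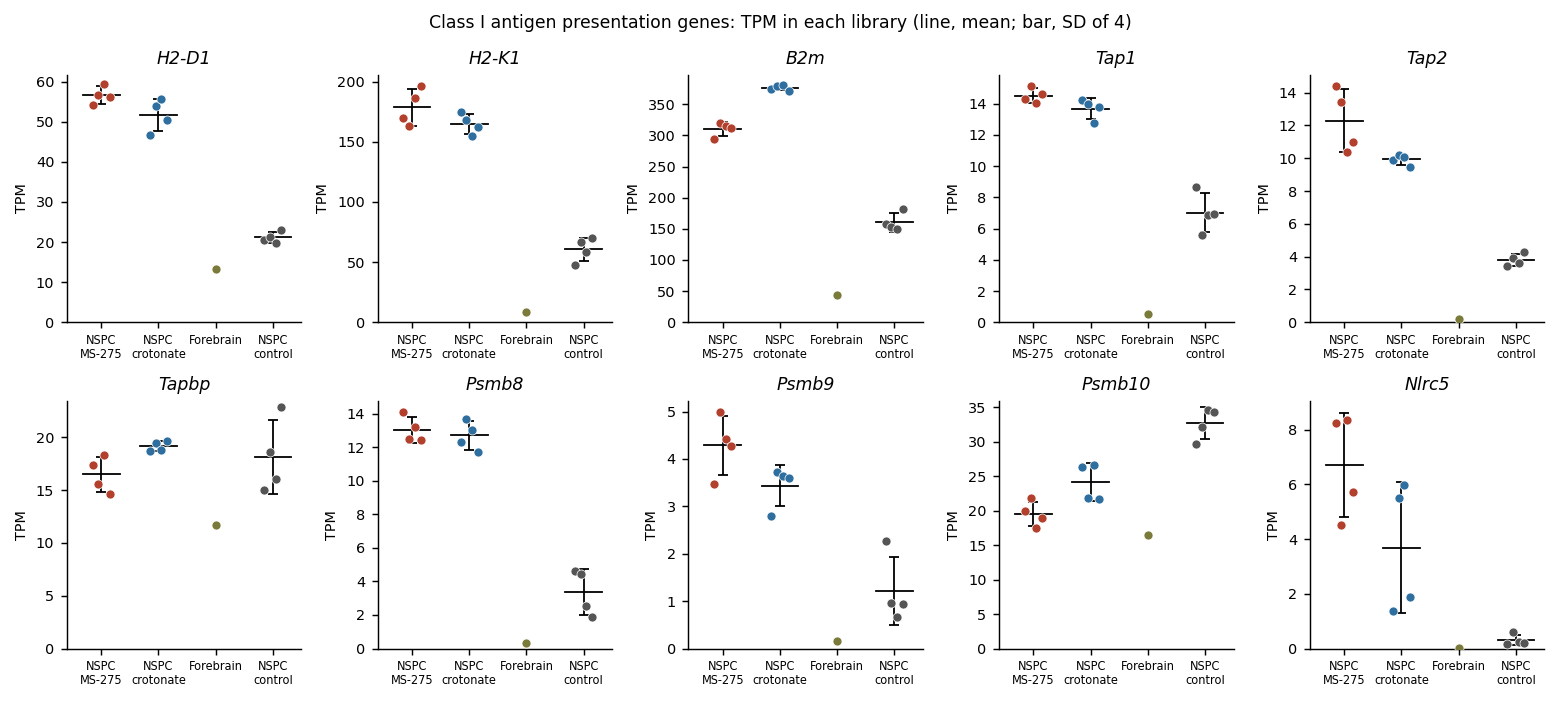
Level in TPM (vertical axis, linear from 0, own scale per gene) of each of the 10 class I genes by group; points are libraries, lines the means and bars the SD of 4 libraries, with 1 forebrain library. Apart from Tapbp and Psmb10, the MS-275 and crotonate points all stand above the control points; Psmb10 shows the opposite order and Tapbp overlaps.

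With limma at an adjusted p below 0.05, 8 of the 10 genes were called higher with MS-275, 1 lower and 1 not. The counts with crotonate were the same. Of all 14857 genes tested, 65.1% were called with MS-275 (37.4% higher, 27.6% lower) and 48.1% with crotonate (32.3% higher, 15.9% lower). Under crotonate these calls were 4796 higher and 2356 lower on TPM as deposited, 3488 and 4211 after median-of-ratios scaling, and 3091 and 3685 after quantile normalization. Under MS-275 they were 5561 and 4107 as deposited and 4396 and 5064 after quantile normalization. The 10 genes had no overlap between MS-275 and control in 9 cases, against 58.5% of all genes. With crotonate the figure was also 9, against 44.2%. The median log2 difference of the 10 was 1.34 with MS-275 and 1.21 with crotonate, and that of all genes 0.08 and 0.09. Scaling by median of ratios moved the all-gene median by -0.09 and -0.12, and quantile normalization by -0.13 in both. Single class I genes moved more. Over the alternative settings, with any 1 library left out among them, Tap1 with crotonate ran from 0.59 to 0.98. Tap2 ran from 0.80 to 1.37 and Psmb9 from 0.60 to 1.55. Nothing is read from these counts, because the genes were chosen with them in view, and both comparisons share the 4 control libraries.

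The effect of MS-275 was then set directly against that of crotonate, at the 1 dose of each. B2m and Psmb10 were lower with MS-275 than with crotonate, by log2 differences of -0.28 (SE 0.05) and -0.29 (SE 0.09), and passed the threshold. The Psmb10 libraries overlapped, and its call was lost without crotonate replicate 3, with a difference of -0.24. Tap2 was higher with MS-275 by 0.27 (SE 0.10) and passed by little. With the replicate number as a block its call was lost at the same difference, as it was without any 1 of the 4 crotonate libraries, MS-275 replicate 1 or 2, or control replicate 2, with differences of 0.20 to 0.29. Nlrc5 was higher by 0.84 (SE 0.33), Psmb9 by 0.25 (SE 0.19) and H2-D1 by 0.13 (SE 0.06), none past the threshold. Nlrc5 passed without crotonate replicate 2 (1.05), crotonate replicate 3 (1.09) or MS-275 replicate 2 (0.99), and after median-of-ratios scaling (0.86). H2-D1 passed after median-of-ratios scaling (0.16) and quantile normalization (0.20). H2-K1, Tap1 and Psmb8 differed by 0.11, 0.08 and 0.04. Tapbp was lower by -0.21 with no overlap between the groups and missed the threshold, which it passed without control replicate 4. In all, 1 of the 10 genes was called higher and 2 lower, while 46.7% of all genes were called, 19.3% higher and 27.4% lower. The libraries of B2m, Tap2 and Tapbp did not overlap between the treatments, and those of 43.3% of all genes did not either. The genes were chosen with this contrast known, so nothing is read from these counts.

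**Figure D2:**
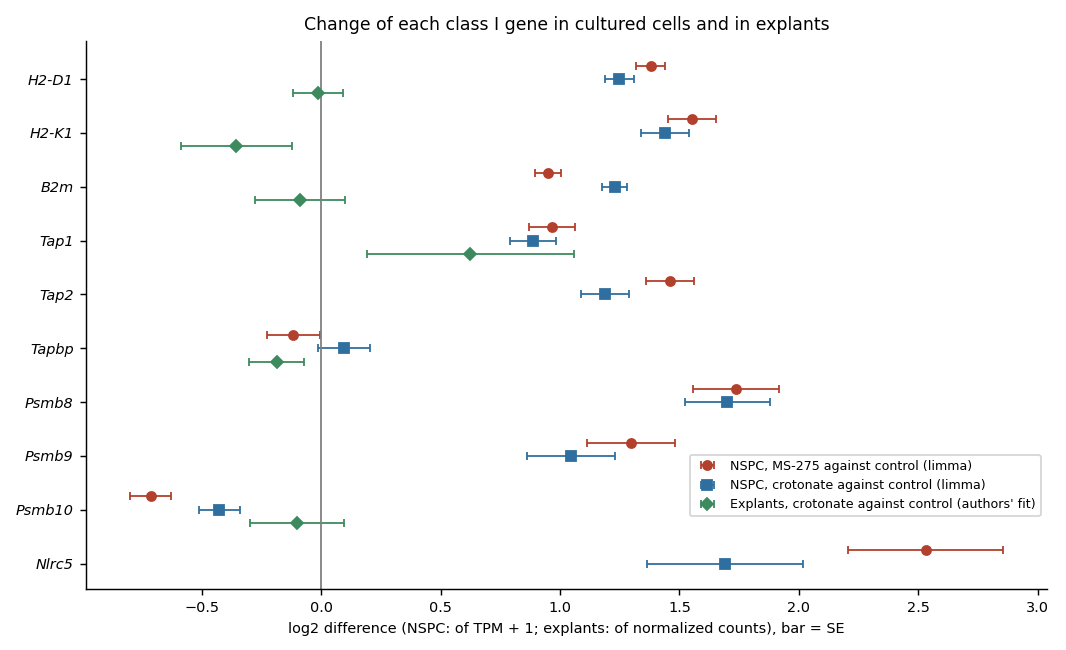
Log2 difference (horizontal axis) of each class I gene for MS-275 and crotonate against control in NSPCs (circles and squares, log2 of TPM + 1, limma) and for crotonate against control in explants (diamonds, authors' DESeq2 values, drawn for the 6 genes with an adjusted p); bars are SE. NSPC values reach 2.53 (Nlrc5, MS-275), while explant values lie between -0.36 and 0.62.

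The levels of the 10 genes spanned a wide range within each group. In MS-275 NSPCs the means ran from 310 ± 11.5 TPM (B2m) through 179 ± 15.4 (H2-K1) and 56.6 ± 2.20 (H2-D1) to 4.29 ± 0.628 (Psmb9; SD, n = 4). Psmb10, Tapbp, Tap1, Psmb8 and Tap2 lay in between, each overlapping the next. In crotonate NSPCs B2m averaged 377 ± 4.31, H2-K1 165 ± 8.49, H2-D1 51.7 ± 3.93 and Psmb9 3.43 ± 0.435 TPM (SD, n = 4). In control NSPCs the order was B2m (161 ± 14.99), H2-K1 (60.7 ± 9.65), Psmb10 (32.7 ± 2.31), H2-D1 (21.2 ± 1.37), Tapbp, Tap1, Tap2, Psmb8, Psmb9 and Nlrc5 (0.310 ± 0.190; SD, n = 4). There H2-D1 overlapped Tapbp, Tap2 overlapped Psmb8, and Psmb8 overlapped Psmb9. Psmb10 stood above H2-D1 in control NSPCs and below it in both treated groups.

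In the forebrain library, all 10 genes were below all 4 control NSPC libraries, as were 33.6% of all genes tested. B2m stood at 43.1 TPM in the forebrain, against 161 ± 14.99 in control NSPCs. H2-K1 stood at 8.85 against 60.7 ± 9.65 TPM, the lowest relative level of the abundant members (0.146 of the control mean). H2-D1 stood at 13.3 against 21.2 ± 1.37 TPM, so H2-D1 exceeded H2-K1 in tissue and the order was reversed in culture. Psmb10 was at 16.5 TPM and Tapbp at 11.7 TPM in the forebrain. Tap1 (0.546 TPM), Psmb8 (0.314), Tap2 (0.187), Psmb9 (0.162) and Nlrc5 (0.0269) were all under 1 TPM there. With 1 tissue library there is no replicate check. The forebrain held 57.3 TPM of summed microglia and blood cell markers, against 5.39 to 8.60 TPM in the control cultures. Its endothelium, neuron, astrocyte and progenitor marker sums, given above, also lay outside the range of the control cultures. The part of cell composition in its class I levels was not tested.

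Immunoproteasome subunits replace constitutive ones, so each was expressed as a percentage of its partner. Psmb8 amounted to 8.65 ± 0.349% of Psmb5 (β5) with MS-275 and 6.77 ± 0.441% with crotonate, to 0.128% in the forebrain and to 1.88 ± 0.729% in control NSPCs (SD, n = 4). Psmb9 amounted to 1.57 ± 0.206% of Psmb6 (β1) with MS-275 and 1.17 ± 0.128% with crotonate, to 0.0379% in the forebrain and to 0.401 ± 0.227% in control NSPCs. For both pairs, the ranges of treated and control libraries did not overlap. Psmb10 amounted to 9.23 ± 0.859% of Psmb7 (β2) with MS-275 and 11.8 ± 1.34% with crotonate, to 5.46% in the forebrain and to 15.6 ± 1.79% in control NSPCs. So 2 of the 3 inducible subunits took a larger part of their pair in treated NSPCs and Psmb10 a smaller one, and each stayed a minority in every library. Psmb5 itself fell with MS-275 (151 ± 4.16 against 179 ± 7.68 TPM, limma adjusted p = 0.000126), as did Psmb6 (272 ± 9.68 against 301 ± 11.0 TPM, adjusted p = 0.00779). Psmb7 did not pass (limma adjusted p = 0.825), and none of the 3 passed with crotonate. Of all genes, 27.6% were called lower with MS-275 and 15.9% with crotonate. After median-of-ratios scaling 2 of the 3 were called lower with crotonate, and after quantile normalization 1 was called higher with crotonate and 1, in place of 2, lower with MS-275.

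**Figure D3:**
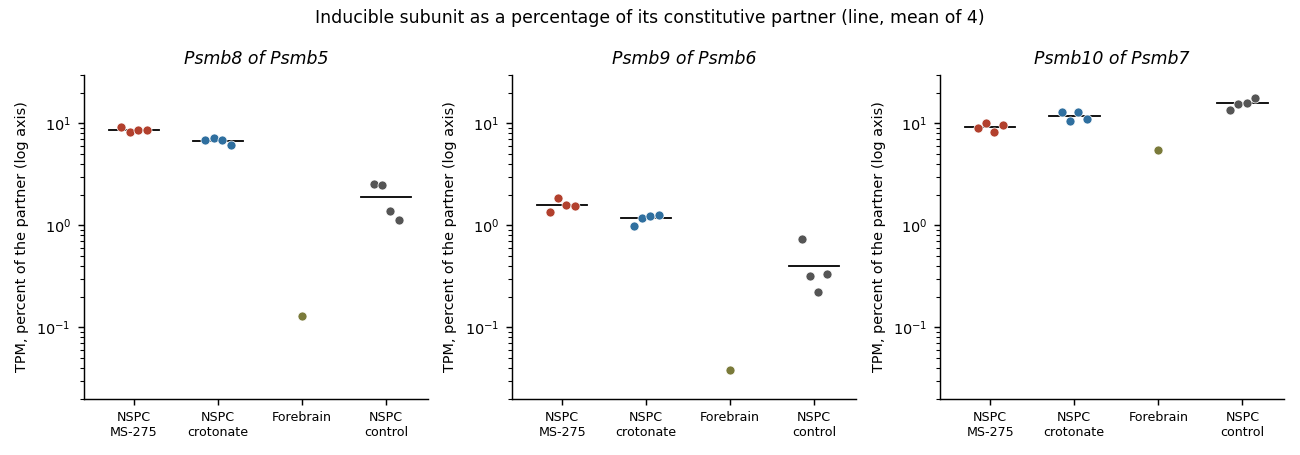
TPM of each inducible proteasome subunit as a percentage of its constitutive partner (vertical log axis) in each library; lines are means of 4 libraries, and the forebrain has 1. Psmb8 and Psmb9 stand higher in MS-275 and crotonate NSPCs than in control NSPCs, and Psmb10 stands lower.

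Most other heavy chain and related genes, which pair with β2-microglobulin in most cases, were higher in treated NSPCs. Of 20 listed, 14 were tested, and 13 rose with MS-275 and 12 with crotonate, with none lower, beside 37.4% and 32.3% of all genes higher. After median-of-ratios scaling 12 rose with each, and after quantile normalization 9 rose and 1 fell with each. H2-T24 did not pass with either agent, and H2-M5 did not pass with crotonate. Mr1, which presents vitamin metabolites to MAIT cells, averaged 15.2 ± 1.07 TPM with MS-275 and 7.02 ± 1.03 with crotonate, against 1.20 ± 0.116 in control NSPCs (limma adjusted p = 3.87e-10 and 4.32e-08). H2-T23, the mouse Qa-1 molecule seen by natural killer cell receptors, averaged 9.22 ± 0.459 and 9.26 ± 1.06 TPM, against 1.44 ± 0.331 TPM (adjusted p = 6.91e-09 and 3.53e-08). Mr1 was higher with MS-275 than with crotonate (adjusted p = 5.53e-06), as was Fcgrt, the neonatal Fc receptor (4.48 ± 1.15 against 2.14 ± 0.861 TPM, adjusted p = 0.00473). H2-Q7 was lower with MS-275 than with crotonate (16.2 ± 1.53 against 23.8 ± 3.19 TPM, adjusted p = 0.00341).

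Genes for peptide trimming and for folding and loading in the endoplasmic reticulum did not move as a block. With MS-275, 4 of 11 rose and 4 fell, and with crotonate 0 rose and 2 fell, beside 37.4% of all genes higher and 27.6% lower with MS-275, and 32.3% and 15.9% with crotonate. After median-of-ratios scaling 6 fell with each agent. The 4 that fell with MS-275 became 2 without control replicate 1, 3 or 4 or MS-275 replicate 2 or 3, and with the 5 TPM filter. Erap1, the aminopeptidase that trims peptides in the endoplasmic reticulum, fell with MS-275 (4.20 ± 0.633 against 6.77 ± 0.694 TPM, limma adjusted p = 0.000197) and did not pass with crotonate (6.09 ± 0.266 TPM, adjusted p = 0.311). Tapbpl, a tapasin relative that edits peptides, fell with MS-275 as well (1.16 ± 0.237 against 1.80 ± 0.186 TPM, adjusted p = 0.0274). Calr, calreticulin of the loading complex, rose with MS-275 (772 ± 37.5 against 595 ± 9.51 TPM, adjusted p = 6.09e-05), as did Lnpep (44.1 ± 2.60 against 30.9 ± 2.02 TPM, adjusted p = 8.68e-06). Tpp2, a cytosolic peptidase, fell with MS-275 (36.3 ± 1.28 against 46.1 ± 2.21 TPM, adjusted p = 2.19e-05). Pdia3, the disulfide isomerase of the loading complex, did not pass with MS-275 (adjusted p = 0.774) or with crotonate (0.0544). With crotonate the 2 that fell were the chaperones Hsp90b1 (416 ± 16.3 against 466 ± 13.48 TPM, adjusted p = 0.00194) and Canx (372 ± 8.85 against 407 ± 16.0 TPM, adjusted p = 0.0154).

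Proteasome subunits outside the inducible set were lower or not past the threshold in TPM as deposited. Of 12 listed genes, other 20S subunits and the assembly factor Pomp, 7 fell with MS-275, beside 27.6% of all genes. With crotonate 1 fell, beside 15.9%, and 0 rose with either agent, beside 37.4% and 32.3%. The counts lower moved with scaling, to 10 and 11 after median-of-ratios scaling and to 3 and 0 after quantile normalization, where 1 rose with MS-275. The 1 lower with crotonate became 0 without control replicate 1, 2 or 3, crotonate replicate 2 or MS-275 replicate 3, and 2 without crotonate replicate 4 or MS-275 replicate 1. Psma4 fell with MS-275 (214 ± 9.38 against 297 ± 21.8 TPM, limma adjusted p = 8.87e-06). Psme1, the α subunit of the interferon-inducible PA28 activator, rose with MS-275 (83.6 ± 3.71 against 50.7 ± 3.43 TPM, adjusted p = 4.16e-07) and with crotonate (73.3 ± 5.32 TPM, adjusted p = 1.76e-05). Its partner Psme2 fell with both (43.8 ± 3.34 with MS-275 and 43.8 ± 3.53 with crotonate, against 53.8 ± 3.05 TPM, adjusted p = 0.00219 and 0.0037).

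Of the factors known to bind class I promoters, 12 of 13 were tested. With MS-275, 1 of the 12 rose and 6 fell, beside 37.4% and 27.6% of all genes. With crotonate 1 rose and 4 fell, beside 32.3% and 15.9%. The 4 became 6 after either other scaling, and 2 without the filter, without the trend, or without control replicate 1 or 3, crotonate replicate 1 or 2, or MS-275 replicate 3. Irf1, which binds the interferon-response motif, rose with MS-275 (13.4 ± 0.800 against 9.95 ± 1.45 TPM, limma adjusted p = 0.00157) and did not pass with crotonate (9.89 ± 0.301 TPM, adjusted p = 0.99). Rfx5, the DNA-binding subunit of RFX, rose with crotonate (34.3 ± 2.33 against 23.2 ± 4.62 TPM, adjusted p = 0.00123) and did not pass with MS-275 (23.8 ± 1.60 TPM, adjusted p = 0.683). Rela, a κB-binding subunit, fell with MS-275 (29.9 ± 3.37 against 48.8 ± 3.43 TPM, adjusted p = 2.43e-05) and with crotonate (36.5 ± 4.24 TPM, adjusted p = 0.00254). Nfyb, a subunit of the CCAAT-binding factor NF-Y, fell with MS-275 (25.1 ± 2.18 against 37.0 ± 1.53 TPM, adjusted p = 2.26e-05).

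The interferon ligands listed, which did not include the Ifna family, were near or at 0. Ifnb1, Ifng, Ifne, Ifnl2 and Ifnl3 were listed at 0 in all 12 NSPC libraries and in the forebrain. Ifnk reached 0.171 TPM in control NSPCs and was at 0 in the other groups. The counts that follow stand beside 37.4% of all genes higher and 27.6% lower with MS-275, and 32.3% and 15.9% with crotonate. Of 13 tested receptor and signalling genes, 11 rose and 2 fell with MS-275, and 5 rose and 1 fell with crotonate, where 0 were higher and 3 lower after median-of-ratios scaling and 1 was higher after quantile normalization. The 5 higher with crotonate became 2 without control replicate 1 or crotonate replicate 2 or 3, and 3 without control replicate 2. Jak2 fell with both agents (23.5 ± 1.58 and 29.4 ± 1.81 against 40.4 ± 1.26 TPM, limma adjusted p = 1.83e-07 and 5.02e-05). Of 21 tested interferon-stimulated genes outside class I, 21 rose with MS-275 and 16 with crotonate, where 1 fell (9 rose with crotonate after quantile normalization). Bst2, a tether of budding virions, averaged 96.2 ± 7.24 TPM with MS-275 and 60.5 ± 5.38 with crotonate, against 10.09 ± 3.27 in control NSPCs (adjusted p = 3.3e-09 and 1.03e-07). Rsad2, the antiviral enzyme viperin, averaged 10.6 ± 1.27 and 2.62 ± 0.257 TPM, against 0.466 ± 0.162 TPM (adjusted p = 8.38e-10 and 2.48e-06). MS-275 set against crotonate directly gave 14 of these 21 genes higher and 1 lower, beside 19.3% and 27.4% of all genes. Of the 10 class I genes, 1 was higher and 2 were lower. Whether the 2 lists differ was not tested. Among class II genes, 3 of 9 were tested and all 3 rose with both agents (2 with crotonate after either other scaling). H2-Ab1 averaged 26.1 ± 1.24 TPM with MS-275 and 27.0 ± 1.98 with crotonate, against 1.34 ± 0.640 in control NSPCs (adjusted p = 1.08e-09 and 6.44e-09).

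The profile of the class I genes over the 12 NSPC libraries was described by the mean of their standardized log2 values. Tapbp (r = 0.09) and Psmb10 (r = -0.83) did not follow it, and the other 8 genes had r between 0.88 and 0.99 with a mean that includes them. Of 10914 genes compared outside the lists, the nearest to it were Smarca1 (Pearson r = 0.995), Gaa (0.994), Abcb4 (0.993), Clstn3 (0.993) and Man2b2 (0.992). Smarca1, a chromatin remodelling ATPase, averaged 11.3 TPM with MS-275, 12.7 with crotonate and 3.51 in control NSPCs. Gaa, the lysosomal acid α-glucosidase, averaged 88.4, 88.6 and 46.5 TPM in the same order. These correlations rest on 3 groups of 4 libraries and carry no test.

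In ICR forebrain explants the class I genes were not called. The authors' deposited table gives crotonate against control as the authors' fit of 3 and 3 libraries, without values per library, and its direction is given only by the name of the table. An adjusted p had been computed in the authors' deposited table for 6 of the 10 genes, and 0 of them were below 0.05, nor was the unadjusted p of any of the 10. Of the 14507 genes with an adjusted p in the authors' deposited table, 20.2% were called (10.5% higher, 9.75% lower). H2-D1 had a log2 fold change of -0.01 (SE 0.11, 95% interval -0.22 to 0.19, adjusted p = 0.953) in the authors' deposited table. B2m stood at -0.09 (SE 0.19, interval -0.46 to 0.28, adjusted p = 0.811) in the authors' deposited table. H2-K1 stood at -0.36 (SE 0.23, interval -0.82 to 0.10, adjusted p = 0.313) in the authors' deposited table. The upper bounds of these 3 intervals lie below the differences that crotonate gave in NSPCs, 1.25, 1.23 and 1.44 on the log2(TPM + 1) scale. That difference was not tested, and strain, tissue and scale differ between its sides. For Tap1 the authors' deposited table gives 0.62 with an interval of -0.23 to 1.47, which holds both no change and the NSPC value of 0.89. Tapbp (-0.19, SE 0.12) and Psmb10 (-0.10, SE 0.20) in the authors' deposited table had intervals of -0.41 to 0.04 and -0.49 to 0.28. Tap2, Psmb8, Psmb9 and Nlrc5 had no adjusted p and mean normalized counts of 3.33, 1.67, 0.993 and 5.97 in the authors' deposited table, below the lowest mean with an adjusted p, 16.2. ICR mice are an outbred stock whose H2 alleles can differ from the C57BL/6 reference, and the part of this in the heavy chain counts was not tested. Of 8 other heavy chain genes with an adjusted p in the authors' deposited table, 0 were called. Ifit2, an interferon-stimulated gene, was called higher there by 0.75 (SE 0.22, adjusted p = 0.00579 in the authors' deposited table), and was the 1 call among the 2 such genes with an adjusted p. Of the 24 listed, 2 had an unadjusted p below 0.05. The other, Ifih1, was lower by -1.42 (SE 0.63, DESeq2 p = 0.0230 in the authors' deposited table) and had no adjusted p.

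Chromatin was described from the authors' peak lists, as peaks inside a gene or within 1 kb of either end. A list is a set of positions from 1 library, so presence in 1 list and absence in another has no replicate check. The Kcr lists hold 5845 (MS-275), 23301 (crotonate) and 17669 (control) peaks, and the Kac lists 7555, 21616 and 23427, so fewer genes of any kind carry a peak in the MS-275 lists. A Kcr peak was near 1 of the 10 class I genes with MS-275, near 10 with crotonate and near 3 in control NSPCs, against 23.4%, 74.7% and 64.6% of the 13775 tested genes with a position. A Kac peak was near 3 with MS-275, 8 with crotonate and 5 in control, against 25.4%, 70.3% and 73.0%. Whether the class I genes differ from other genes in these lists was not tested. A Kcr peak in crotonate and none in control was found at H2-D1, H2-K1, B2m, Tap1, Psmb8, Psmb9 and Nlrc5, 7 of 10 genes, against 15.9% of all genes. Psmb9 was counted there only by the peak inside Tap1, so 1 peak serves both genes. For Nlrc5, 1 crotonate Kcr peak lay inside the gene, where Kac was called in control as well. The other lay within 1 kb of the start of 9330175E14Rik. A Kcr peak was lost with crotonate at 0 of the 10, against 5.82% of all genes. For Kac, a peak with crotonate and none in control was found at H2-D1, Tap1 and Psmb8, against 8.40% of all genes. With MS-275 no class I gene had a Kcr or Kac peak that the control lacked, as was so for all but 3.41% and 2.12% of all genes. Tap2 and Tapbp had a control peak of both marks and none with MS-275, a pattern of 44.6% of genes for Kcr and 49.8% for Kac.

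**Figure D4:**
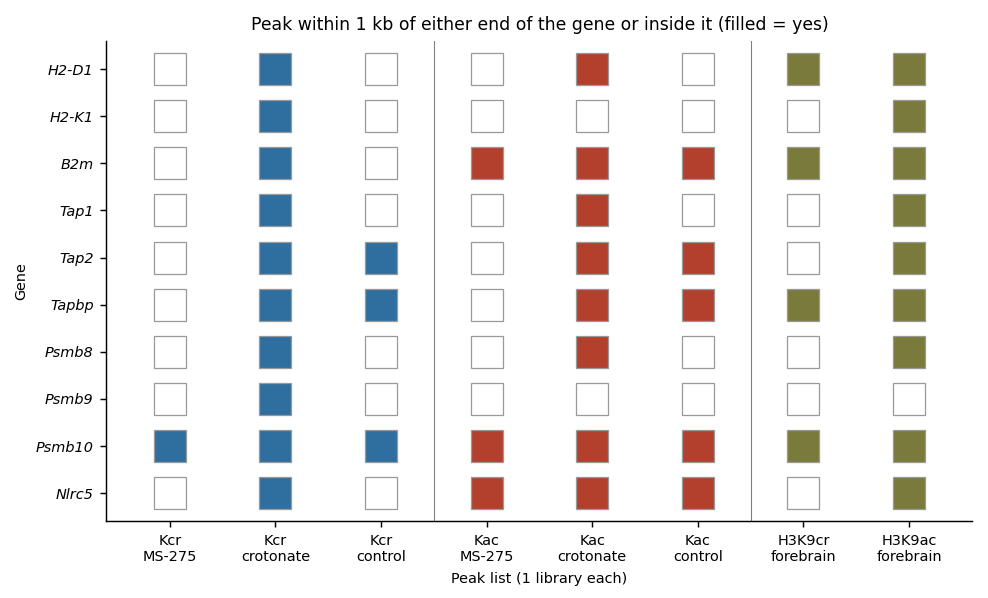
Presence (filled) of a called peak inside each class I gene (rows) or within 1 kb of either end, in each of the 8 peak lists (columns), 1 library each. The crotonate Kcr column is filled for all 10 genes, the control Kcr column for Tap2, Tapbp and Psmb10, and the MS-275 Kcr column for Psmb10 alone.

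The peaks were next placed against the promoter table's start of the 8 genes with a known strand, within 1 kb on either side. At the start, Kcr peaks were found in 1 of 8 genes with MS-275, 8 with crotonate and 1 in control NSPCs, against 18.8%, 72.2% and 62.8% of genes. Kac peaks were found in 2, 4 and 2 of the 8, against 20.5%, 67.3% and 71.1%. In H2-K1 the crotonate Kcr peak (chr17:33999489-34000195) ran from 152 to 858 bases downstream of the start at 34000347. In B2m the crotonate Kcr peak (chr2:122147812-122148316) ran from 125 to 629 bases into the gene, and Kac peaks overlapped it with MS-275, with crotonate and in control. H2-D1 carried a crotonate Kcr peak 449 to 661 bases into the gene (chr17:35263543-35263755) and 2 crotonate Kac peaks, of which 1 overlapped it. Psmb8 had a crotonate Kcr peak at 81 to 470 bases (chr17:34198276-34198665) and crotonate Kac peaks before and after the start. Psmb10, lower in treated cells, had peaks of both marks in every one of the 3 NSPC conditions and in both forebrain lists. In Tapbp the crotonate Kcr list alone among the NSPC lists had a peak at the start (chr17:33919642-33920219), while its other peaks lay past its end, within 1 kb of the start of Rgl2. In Nlrc5, Kac peaks of all 3 conditions, the crotonate Kcr peak and the forebrain H3K9ac peak fell on 1 internal place, between 94492157 and 94492570 on chromosome 8. The other Kcr peak counted for Nlrc5 with crotonate (chr8:94433997-94434223) lay just outside the lower annotated end of Nlrc5 at 94434335. It was also within 1 kb of the start of 9330175E14Rik, and the promoter table held no start of Nlrc5.

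**Figure D5:**
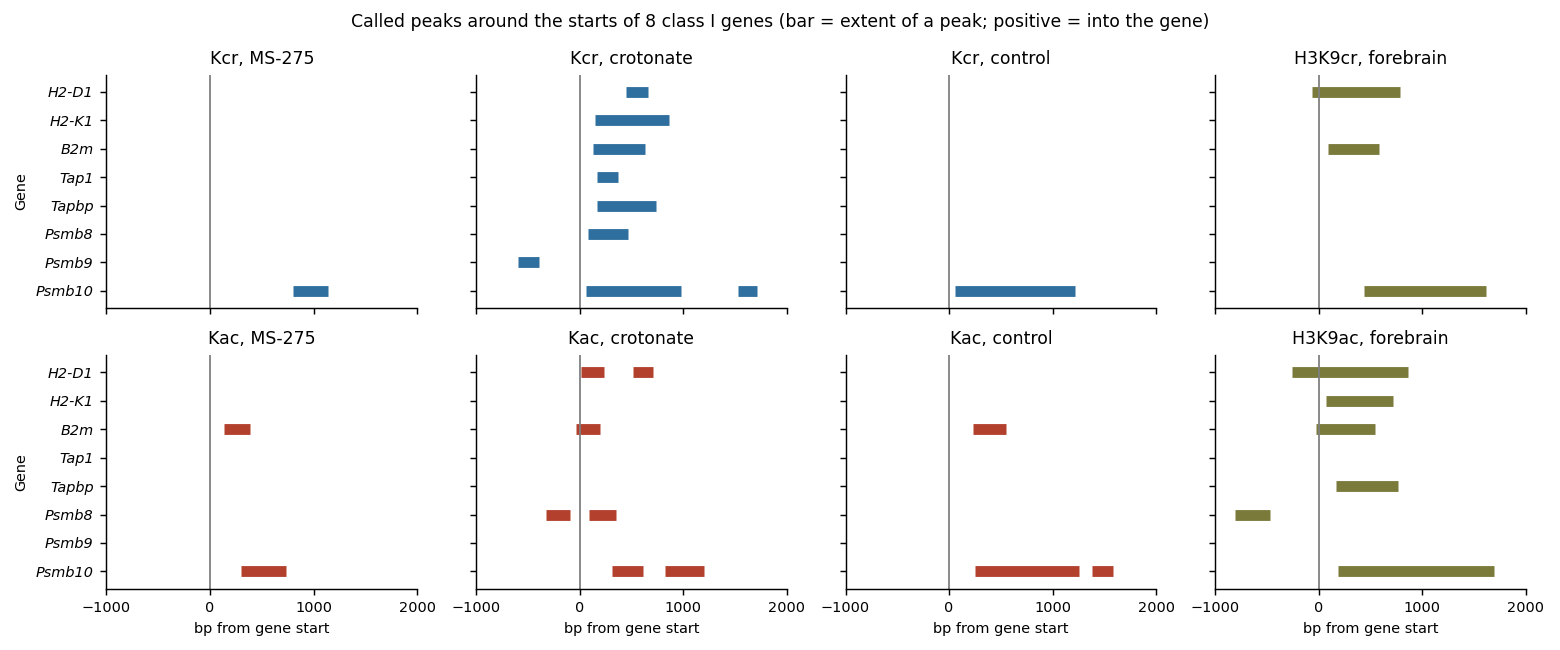
Extent of each called peak in bp from the promoter table's start (horizontal axis, positive into the gene; peaks beyond the axis limits are not drawn) for the 8 class I genes with a known strand (rows), 1 panel per peak list. With crotonate, Kcr bars appear at all 8 genes, mostly within the first 1000 bases, and in control NSPCs at Psmb10 alone within the axis limits, since the control Kcr peaks counted for Tapbp lie past its far end.

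Of the 10 genes, 4 lie side by side. Psmb9, Tap1, Psmb8 and Tap2 span 34292 bp of chromosome 17, with 225 bp between Psmb9 and Tap1, 969 bp between Tap1 and Psmb8 and 3024 bp between Psmb8 and Tap2. Psmb9 runs away from Tap1, so the 225 bases printed above precede both. The crotonate Kcr peak chr17:34187722-34187927 lies 166 to 371 bases into Tap1 and was counted for both genes, and no other list had a peak at either start. The crotonate Kac peak and the forebrain H3K9ac peak counted for Tap1 lie past its end, before the start of Psmb8. These 4 neighbours were all higher in both treated groups, as were H2-D1 and H2-K1 elsewhere on chromosome 17, B2m on chromosome 2 and Nlrc5 on chromosome 8.

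In forebrain tissue an H3K9cr peak was near 4 of the 10 genes (H2-D1, B2m, Tapbp and Psmb10), against 78.1% of tested genes. The peaks counted for Tapbp lie at its far end, within 1 kb of the start of Rgl2. An H3K9ac peak was near 9 of the 10, all but Psmb9, against 88.2%. The 4 genes with H3K9cr were among the 5 with the highest forebrain TPM, the other being H2-K1. The authors' MACS2 fold enrichment of the H3K9ac peak was 17.0 at H2-D1, 16.0 at Psmb10, 8.94 at B2m, 6.02 at H2-K1 and 3.40 beside Psmb8. For H3K9cr it was 9.42 at H2-D1, 7.997 at Psmb10 and 4.02 at B2m. At a -log10 q of at least 10, H3K9ac peaks remained near 7 of the genes and H3K9cr peaks near 3.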

How the data were processed

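The deposited TPM values of the NSPCs and forebrain were made by the authors with Salmon 1.0.0 on GRCm38, per the submitters' processing notes. For explants the authors deposited mean normalized counts (a signal averaged over libraries), log2 fold changes, a score (fold change over SE) and p-values from DESeq2 1.26.0, with an adjusted p of 1 written where none was computed. Peaks came from Bowtie2 2.3.5.1 and MACS2 2.2.5, per the submitters' processing notes. The forebrain lists deposited by the authors hold a peak score, fold enrichment (a ratio) and -log10 p and q. The deposited NSPC lists hold positions alone, so their threshold is not known.

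Genes with at least 1 TPM in 4 of the 12 NSPC libraries (14857) were fitted as log2(TPM + 1) with limma 3.58.1 in R 4.3.3, with a trended prior, and p-values were adjusted by Benjamini-Hochberg over all of them with a threshold of 0.05. The code was checked on simulated data. The sample titles give replicate numbers and name no pairing. Same-numbered libraries deviated together in all 12 pairs (correlation 0.119 to 0.241, against -0.197 to 0.0993 in 36 other pairs), so the numbers may pair the samples. The main fit has no block, so its SEs and p-values take no account of such pairing, and the block was an alternative. Peaks were joined to genes with an overlap of at least 1 bp within 1 kb, with bedtools 2.31.1 as a check. Python 3.11.15, pandas 2.3.3, NumPy 2.4.6, Biopython 1.88 and matplotlib 3.10.9 were used.

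The members and gene lists were chosen with earlier results of these data known, so the p-values of listed genes are no independent test. Besides the members, genes were named by a fixed rule: per list and contrast, those with the smallest adjusted p, 2 in the more frequent direction and 1 in the other, with others of the loading, transcription factor and constitutive subunit lists by value, and the 5 most alike in profile. Not every gene the rule gives is printed, and 1 result is not reported here. Ifit2 and Ifih1 in explants were named after their values were seen.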

Additional observations from a re-analysis of the deposited data

Results flagged for a closer look

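Psmb9 in crotonate replicate 1 stood apart from the other crotonate libraries, at 2.79 TPM where the nearest was at 3.60 TPM. The gap was 0.878 of the range of the group, above the critical value of 0.829 for 4 samples. It was the 1 such case in 39 groups of 4 libraries, and chance marks about 1 in 20 groups. The library was still above all 4 controls.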

How the results depend on the processing

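Against control, the 8 higher calls and 1 lower call among the class I genes were kept for both agents under every alternative, except that Psmb9 was not tested with a filter of 5 TPM. They were also kept without any 1 library. The genes were chosen with these differences known, so this says nothing about stability. Over all genes, crotonate gave 3091 higher after quantile normalization, and 4211 lower after median-of-ratios scaling and 3685 after quantile normalization. For MS-275 against crotonate, 0 class I genes were higher without the filter and with the replicate block, 2 with the 5 TPM filter and after quantile normalization, and 3 after median-of-ratios scaling. Leaving out 1 library gave 0 to 1 higher and 1 to 3 lower. With the block, which pairs the replicate numbers, the Tap2 difference stayed at 0.27. With a pseudocount of 0.1, the log2 ratio of Psmb8 to Psmb5 was -3.52 (MS-275), -3.88 (crotonate) and -9.21 (forebrain). That of Psmb9 to Psmb6 was -5.97, -6.38, -10.67 (forebrain) and -7.97 (control), and that of Psmb10 to Psmb7 was -4.19 in the forebrain. With the gene start alone, peaks were counted at 4 genes for Kac with crotonate, 2 for Kac in control and 1 for Kcr in control, where 8 genes have a start. The cause of these changes was not tested. No paired analysis was possible because of single summary values per gene in the explants. Unknown depth limits the low members, Psmb9 and Nlrc5 above all.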
